A study of Rattus norvegicus with 19 samples.

Results

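Deep motor cortex of rats 14 days after a lesion of the dorsal columns of the spinal cord was compared with that of control rats, on 7 of the 19 arrays of the series. The 3 day 14 arrays and the 4 control arrays were taken by their labels, and no measured value entered their choice. All of this RNA came from adult female Fischer 344 rats, and no transgene, drug or other agent is named for either group. In the lesion group a wire knife had cut the dorsal funiculus at the cervical level C3 after a laminectomy. The tissue of both groups was motor cortex of the areas for fore- and hindlimb, of which only the deeper portion with layer V was kept. The labels give the controls as time 0 and do not say whether they had a sham operation. They number the arrays of a group as replicates without saying that each came from a rat of its own, so p-values measure the spread between these samples, which may in part be technical. The other 12 arrays, from days 1, 3, 7 and 49 after the same lesion, served for the shared spread and for the course in time. The measure was the log2 signal of 31042 probe sets, of which the brightest of each of 14217 genes stands for that gene.

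Corticospinal neurons are large pyramidal cells of layer V. In rodents most of their axons run in the dorsal columns, so a cervical cut severs them far from the cell body. Neurons with a cut axon can switch on a set of genes known as regeneration associated, best described in peripheral ganglia. The set holds transcription factors such as Atf3, Jun and Sox11, growth proteins such as Gap43 and Sprr1a, and secreted neuropeptides such as Gal, Vip and Npy. The dissected tissue also holds other neurons, astrocytes, microglia, oligodendrocytes and vessels. In such bulk tissue fewer cells of a type and less RNA per cell cannot be told apart.

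The neuropeptide genes Vip, Npy and Gal held ranks 1, 3 and 4 of 14217 genes by difference from control without day 14 replicate 2 and ranks 1, 3 and 2 with it, and their promoters are shown for this reason, as the 250 bases before the annotated start in RefSeq on the build GRCr8, read along the gene. Capitals mark TGACG, the core that transcription factors of the ATF and CREB family recognise; Atf3 belongs to that family.
Vip, chr1:44470230-44470479, plus strand: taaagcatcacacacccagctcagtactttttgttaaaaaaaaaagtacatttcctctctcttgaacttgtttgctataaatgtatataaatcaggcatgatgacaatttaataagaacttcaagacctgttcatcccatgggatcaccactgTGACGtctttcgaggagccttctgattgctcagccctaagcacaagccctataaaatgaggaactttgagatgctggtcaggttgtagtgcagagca
Gal, chr1:210084573-210084822, minus strand: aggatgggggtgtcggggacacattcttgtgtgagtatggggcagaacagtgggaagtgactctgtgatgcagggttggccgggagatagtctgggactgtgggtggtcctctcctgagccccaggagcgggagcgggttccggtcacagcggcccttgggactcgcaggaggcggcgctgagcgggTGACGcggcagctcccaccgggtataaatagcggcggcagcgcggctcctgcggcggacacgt
Npy, chr4:80211861-80212110, plus strand: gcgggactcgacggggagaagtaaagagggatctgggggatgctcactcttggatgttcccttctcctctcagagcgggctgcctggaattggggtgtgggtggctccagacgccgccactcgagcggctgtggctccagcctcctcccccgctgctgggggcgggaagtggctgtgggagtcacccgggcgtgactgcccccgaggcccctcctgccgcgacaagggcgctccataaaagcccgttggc
TGACG stood 97 to 93 bases before the start of Vip and 63 to 59 bases before that of Gal, and was not found in the Npy window on either strand. The motif is common: 5205 of 27457 promoter windows of this length held it. None of the 3 windows held the palindrome TGACGTCA (in 1.70% of windows), which contains TGACG, or the AP-1 motif TGANTCA (in 6.36%). TATAAA was found 3 times in the Vip window, once in that of Gal and not in that of Npy, against 13.1% of all windows. Both strands were searched for each motif. These matches describe the letters and not binding.

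The array labelled day 14 replicate 2 stood apart from the rest. The comparison, its leading genes and the list counts are therefore given with and without it, and other single differences without it, with those of the other sign named. The 3' minus 5' signal of the beta-actin controls, which grows when RNA is broken, was 2.24 (log2) on that array, 0.955 and 1.03 on the other 2 day 14 arrays, and 0.877 to 1.09 on the controls. The same difference for GAPDH was 3.18, against 0.06 on both other day 14 arrays and at most 0.11 on the controls. That of hexokinase was 1.09, inside the control range of 0.896 to 1.87, so that 2 of the 3 controls of this kind stood apart. Day 14 replicate 2 differed by more than 1 log2 unit from replicate 1 in 4053 probe sets (13.1%) and from replicate 3 in 4034 (13.0%), whereas replicates 1 and 3 differed so much in 5. Among the controls, replicate 3 differed from the other controls in 272 to 319 probe sets, and the others among themselves in 8 to 30. The comparison without day 14 replicate 2 also left out day 49 replicate 2, whose median correlation with the other arrays was 0.968, against 0.931 for day 14 replicate 2 and 0.994 to 0.997 for the other 17. It therefore rests on 2 day 14 arrays against 4 controls and is called the comparison without replicate 2.

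**Figure D1:**
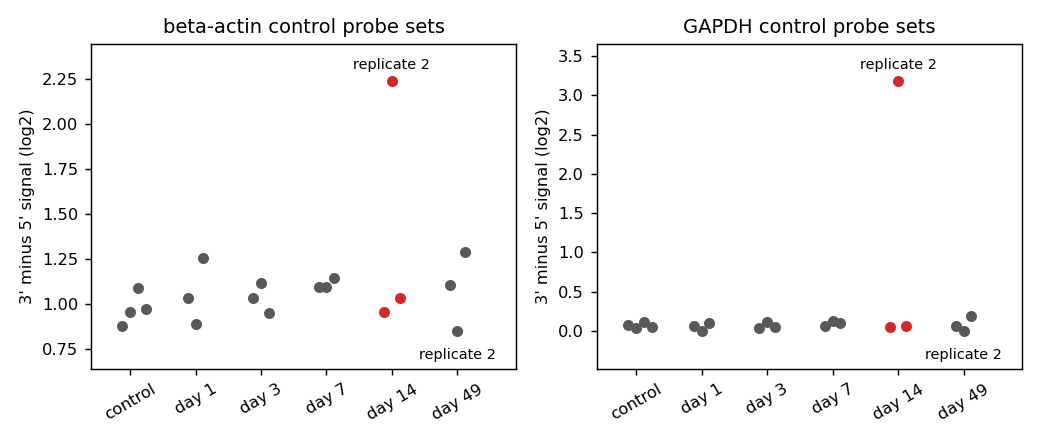
Signal of the 3' control probe set minus that of the 5' one (log2) for beta-actin (left) and GAPDH (right) on each of the 19 arrays by group, with day 14 in red. Day 14 replicate 2 sits at 2.24 and 3.18, above every other array, and the other 2 day 14 arrays sit among the rest.

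The comparison asks what differs in this tissue 14 days after its projecting axons were cut. The 5 genes with the largest positive difference without replicate 2 were Vip, Csrp3, Npy, Gal and Atf3, from 2.88 down to 1.44 on the log2 scale. The next gene, Eml2, was at 0.85. The same 5 genes led when replicate 2 was kept, in another order. None of them passed the threshold of 0.05 after adjustment over all probe sets: limma, with the spread shared over 6 groups, called 0 of 31042 probe sets (0.0%) with all arrays and 0 (0.0%) without replicate 2. The smallest adjusted p was 0.178 and 0.203. At an unadjusted p under 0.05 there were 4069 probe sets (13.1%) with all arrays and 1763 (5.68%) without replicate 2. An exact two-sided rank test of a single gene cannot reach 0.05 here. Its smallest p is 0.0571 for 4 against 3 arrays and 0.133 for 4 against 2.

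Vip encodes vasoactive intestinal peptide, made in cortex by a class of inhibitory interneurons and in injured ganglia by axotomized neurons. Its log2 signal was 3.97, 3.82, 3.77 and 4.05 on the 4 controls and 7.14, 6.56 and 6.41 on day 14 replicates 1, 2 and 3. All 3 day 14 arrays lay more than 2 log2 units above every control. The difference was 2.81 (SE 0.51, adjusted p = 0.301) with all arrays and 2.88 (SE 0.59, adjusted p = 0.378) without replicate 2. In the controls the probe set was dim, brighter than 20.0% of all probe sets, and at day 14 brighter than 64.4%. These values do not show whether Vip was above background in the controls, so no fold is given. The shared SE takes in day 7, where Vip varied with an SD of 1.67. With only the control and day 14 arrays in the fit the SE was 0.18 in both comparisons, and Vip was called (adjusted p = 0.0319 with all arrays and 0.00417 without replicate 2).

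Gal encodes galanin, a peptide that axotomized sensory and motor neurons make. Its signal was 6.70, 6.52, 6.85 and 6.60 on the controls and 8.46, 8.71 and 8.11 at day 14. The groups were separated by more than 1 log2 unit, and replicate 2 was the highest. The difference was 1.76 (SE 0.26, adjusted p = 0.178), the smallest p of all genes with all arrays, and 1.61 (SE 0.28, adjusted p = 0.252) without replicate 2. Gal passed in the fit of those 2 groups alone without replicate 2 (adjusted p = 0.0106).

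Npy encodes neuropeptide Y, likewise a peptide of interneurons and of injured neurons. Its signal was 6.53, 6.58, 6.23 and 6.03 on the controls and 8.53, 7.81 and 7.76 at day 14. Every day 14 array lay more than 1 log2 unit above every control, and replicate 1 was the highest. The difference was 1.69 (SE 0.41, adjusted p = 0.365) and, without replicate 2, 1.80 (SE 0.45, adjusted p = 0.638).

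Csrp3 encodes a muscle LIM protein that is also found in injured and regrowing neurons. Its signal was 4.69, 4.69, 4.62 and 4.80 on the controls and 6.91, 5.16 and 6.45 at day 14. Here replicate 2 was the lowest of its group, though still above every control. The difference was 1.47 (SE 0.38, adjusted p = 0.365) with it and 1.98 (SE 0.33, adjusted p = 0.203) without it. The latter was the smallest adjusted p in that comparison, shared with other probe sets, among them 1 of Kif1a. The fit of the 2 groups alone without replicate 2 called Csrp3 (adjusted p = 0.00417).

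Atf3 encodes the stress-induced transcription factor most often used to mark axotomized neurons. Its signal was 5.88, 5.84, 5.86 and 6.11 on the controls and 7.43, 7.90 and 7.30 at day 14. The groups were more than 1 log2 unit apart. The difference was 1.62 (SE 0.38, adjusted p = 0.365) and, without replicate 2, 1.44 (SE 0.42, adjusted p = 0.701), and the fit of those 2 groups alone without replicate 2 called it (adjusted p = 0.00417).

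**Figure D2:**
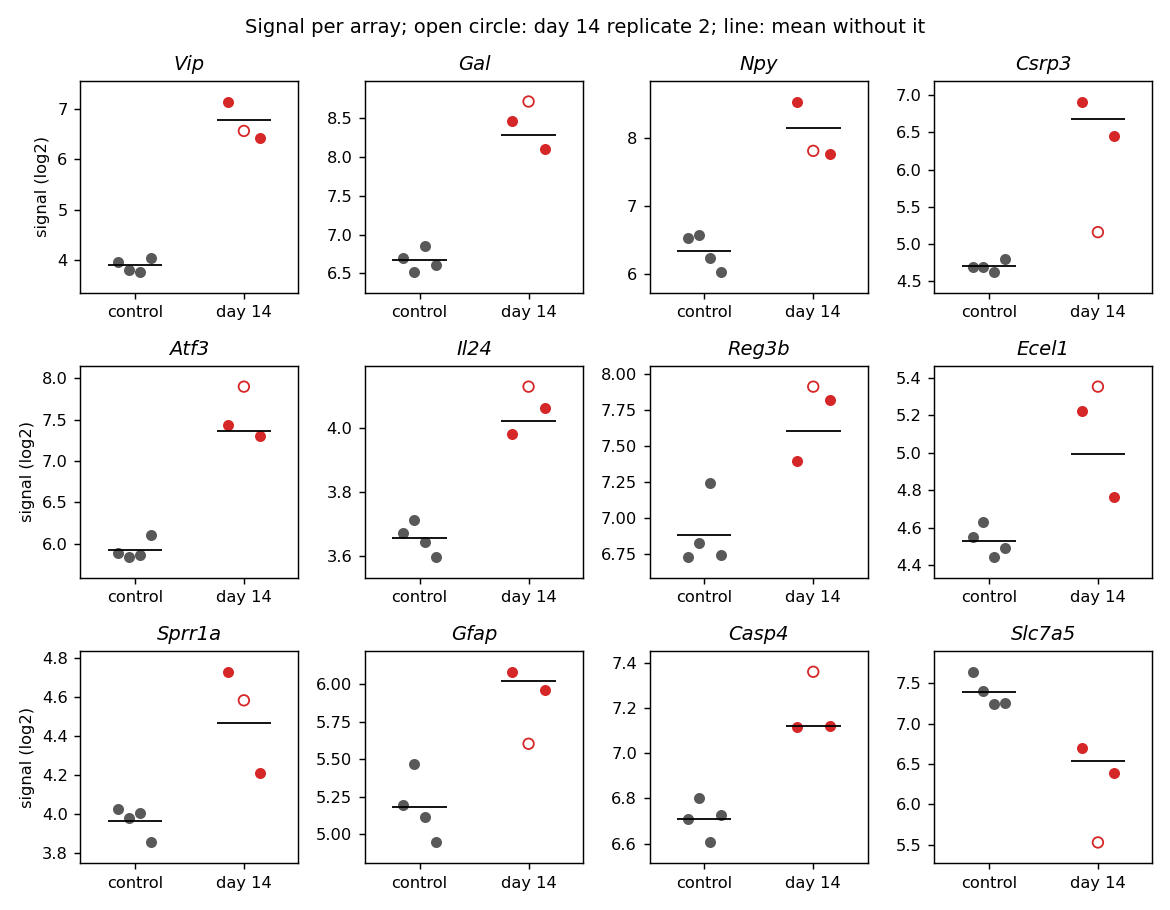
Log2 signal of 12 genes on each control and day 14 array; filled points are arrays, the open circle is day 14 replicate 2, and the line is the group mean without it. Vip, Gal, Npy and Atf3 are more than 1 log2 unit above all controls on every day 14 array, Csrp3 on 2 of 3, and Slc7a5 is below all controls on every day 14 array.

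The 5 leading genes are all members of the regeneration associated list, which was written with earlier results of these data known, so their place on it is no separate evidence. Of the 41 measured members of that list, 27 had a positive difference without replicate 2, where 53.4% of all genes did, with a median of 0.08 against 0.01 over all genes. In 14 members both day 14 arrays lay above all controls and in 1 below, where 8.15% and 5.69% of all genes did so. With all arrays 27 members had a positive difference, against 63.0% of genes, and 12 lay above and 1 below all controls, against 5.63% and 2.07%. No member passed the adjusted threshold in either comparison. Behind the 5 came Reg3b, a secreted lectin of injured tissue (0.72, SE 0.22), the growth cone protein gene Sprr1a (0.50, SE 0.20), Ecel1, an injury-induced peptidase (0.47, SE 0.13), and the cytokine gene Il24 (0.37, SE 0.07). Their adjusted p without replicate 2 lay between 0.366 and 0.855. Il24 was low on every array, at 3.59 to 3.71 on the controls and 3.98 to 4.13 at day 14, brighter than 12.9% of probe sets in the controls. Sprr1a was brighter than 21.7% of probe sets in the controls. Stmn4, a stathmin that binds tubulin, was 0.30 higher without replicate 2 but 0.29 lower with it, with a signal of 7.18 on replicate 2 against 9.02 and 8.91 on the others.

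Other members of that list differed by less. Gap43, which is abundant in growth cones, was at 11.5 to 11.6 on the controls and on day 14 replicates 1 and 3, a difference of 0.04 (SE 0.06). The transcription factor genes Jun and Sox11 differed by 0.06 (SE 0.11) and 0.23 (SE 0.13), and the signal of Sox11 was 3.83 on replicate 2, below all controls. Flrt3, a cell surface protein of guidance, was at 7.21, 7.63 and 7.04 at day 14, above all controls at 6.81 to 6.91 (0.26 without replicate 2). The annexin gene Anxa1 differed by 0.13. Cd44, a receptor for hyaluronan, was the member below all controls (-0.14). Of 25 transcription factor genes of the AP-1 and injury list, 13 were above 0 without replicate 2 and 17 with all arrays. Without replicate 2, Atf3, Fosl1 (0.19) and Sox11 lay above all controls and Xbp1 (-0.08) below, counts near the 8.15% and 5.69% of all genes.

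Without replicate 2, the median neuropeptide gene and interneuron marker lay near control. Of 23 neuropeptide genes, 11 were above 0 without replicate 2, with a median of -0.01, and 19 with all arrays, with a median of 0.10 against 0.06 over all genes. Those above all controls were Vip, Npy, Gal and Cck and none was below, in both comparisons, with 8.15% and 5.69% of all genes so placed without replicate 2. Cck, cholecystokinin, differed by 0.15 (SE 0.08), Sst, somatostatin, by -0.04 (SE 0.07) and Adcyap1, the relative of Vip known as PACAP, by 0.08 (SE 0.10). Of 20 interneuron markers 12 were above 0, with a median of 0.01, and 15 with all arrays, with a median of 0.08. The genes of the GABA-making machinery, Gad1, Gad2 and Slc32a1, differed by 0.01, 0.16 and 0.01, and the mean level of the 3 was 3.94 and 3.84 on day 14 replicates 1 and 3 against 3.71 to 3.97 on the controls. These signals are low, and the values do not show whether the 3 genes were above background. Of the 20 interneuron markers, 4 lay above all controls and 3 below without replicate 2, where 8.15% and 5.69% of all genes did so. With all arrays 4 lay above and 1 below, against 5.63% and 2.07%. Without replicate 2, Calb1, the gene of the calcium binding protein calbindin, lay below all controls (-0.43, SE 0.17). So did the serotonin receptor gene Htr3a (-0.18) and the cannabinoid receptor gene Cnr1 (-0.20), while the matrix protein gene Reln lay above (0.24).

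The leading genes were not high at all times after the lesion. Vip was at 4.22 at day 1 and 4.04 at day 3, near the control mean of 3.90, at 4.08, 5.49 and 7.41 on the 3 day 7 arrays, and at 3.80 and 4.88 on the 2 day 49 arrays kept. Gal was at 7.06, 7.05 and 7.93 at days 1, 3 and 7 and back at 6.68 at day 49, near the control mean of 6.67. Csrp3 was at 4.84, 4.91 and 5.73 at those times and at 4.70 at day 49, the level of the controls. Npy was at 6.39, 6.53 and 7.56, and at 6.48 at day 49. Day 14 thus held the highest group mean of these 4 genes, while the 3 day 7 arrays ranged from near control to above any day 14 array for Vip, Gal and Npy. Atf3 had another course, highest at day 1 (7.65), then 6.90, 7.14 and 7.36 at days 3, 7 and 14, and 6.06 at day 49.

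**Figure D3:**
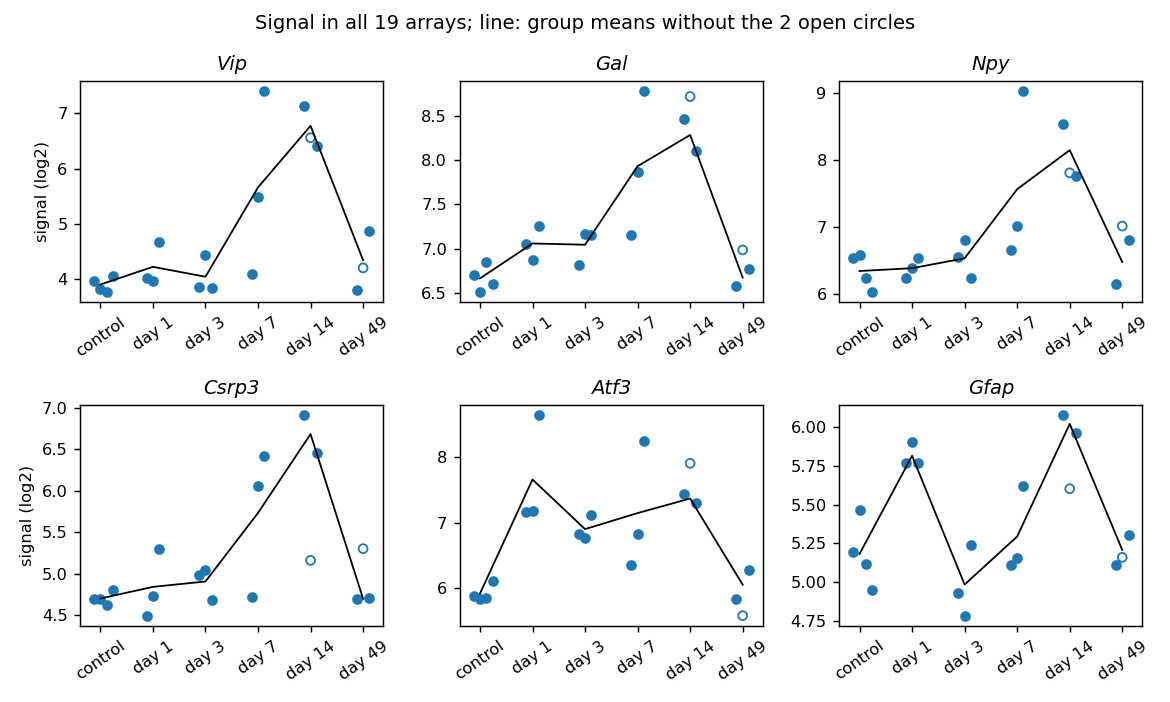
Log2 signal of 6 genes on all 19 arrays by group; the line joins group means without the 2 open circles, day 14 replicate 2 and day 49 replicate 2. The mean is highest at day 14 for Vip, Gal, Npy, Csrp3 and Gfap and at day 1 for Atf3, and the day 7 arrays of Vip spread from 4.08 to 7.41.

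Tests of day 14 against the neighbouring times, in which the controls entered the shared spread but not the difference, called 0 of 31042 probe sets each (0.0%), with 1191 at an unadjusted p under 0.05 against day 7 (3.84%) and 1727 against day 49 (5.56%). Without day 49 replicate 1, which leaves a single day 49 array, 45 probe sets were called against day 49. Against day 7 the differences were 1.12 (SE 0.62) for Vip, 0.35 (SE 0.30) for Gal, 0.95 (SE 0.34) for Csrp3 and 0.58 (SE 0.48) for Npy, with an adjusted p of 1.0 for each. Among the genes of smallest p were Gfap (0.73), Tgm2, a transglutaminase (0.50), Arsi and Clcn7 (both 0.36) and Usp29 (0.31) on the higher side. On the lower side stood Wee1 (-0.47), a kinase of cell division, with Mnd1 (-0.35), Hoxc9 (-0.33), Tcf7l2 (-0.32) and Fam13c (-0.30). Against day 49 the higher genes of smallest p were Csrp3 (1.98, SE 0.38), Gal (1.60, SE 0.33), Tmem26 (0.49), RT1-CE10 (0.40) and the membrane protein gene Pdpn (0.36). The lower ones were Lyve1 (-1.18), Fkbp5 (-0.94, SE 0.13, adjusted p = 0.0793), the ceramidase gene Acer2 (-0.68), the repressor gene Bcl6 (-0.47) and Rasl11b (-0.39).

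Glial genes gave a mixed picture with one leading member. Gfap, the intermediate filament of astrocytes, was at 5.19, 5.47, 5.11 and 4.95 on the controls and at 6.08, 5.60 and 5.96 at day 14. All 3 arrays lay above the controls, replicate 2 by the least. The difference was 0.70 (SE 0.15, adjusted p = 0.365) and, without replicate 2, 0.84 (SE 0.16, adjusted p = 0.306). Of 30 reactive astrocyte genes 21 were above 0 without replicate 2 (median 0.05). In 8 of them both arrays lay above all controls and in 2, Fkbp5 and Cd44, below, where 8.15% and 5.69% of all genes did so. With all arrays 20 were above 0, 6 above all controls and 1 below, against 5.63% and 2.07% of genes. Timp1, an inhibitor of matrix proteases, was 0.32 higher (SE 0.11, adjusted p = 0.827), the copper carrier gene Cp 0.29 higher (SE 0.15) and the complement gene C3 0.25 higher (SE 0.30). Vim, another filament gene of reactive astrocytes, differed by 0.05 (SE 0.06). Of 19 general astrocyte genes 13 were above 0 (median 0.04), and 12 with all arrays (median 0.14). Among the 5 fixed astrocyte markers only Slc1a2, a glutamate transporter, lay above all controls (0.24). Slc1a2 was dim, brighter than 21.1% of probe sets in the controls, and it was not shown to be above background. The mean level of the 5 markers was 7.37 and 7.35 on replicates 1 and 3 against 7.21 to 7.31 on the controls. The part of astrocyte number in these values was not tested.

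Cytokine and acute phase genes were above 0 in 26 of 39 without replicate 2, with a median of 0.05, and in 34 with all arrays, with a median of 0.14. Without replicate 2, 8 lay above all controls and 2 below, where 8.15% and 5.69% of all genes did so. With all arrays 8 lay above and 0 below, against 5.63% and 2.07%. The 8 without replicate 2 were the chemokine genes Ccl7 (0.39, SE 0.10, adjusted p = 0.638), Ccl5 (0.28) and Ccl4 (0.25), the chemokine receptor gene Cxcr4 (0.29), the interleukin gene Il1b (0.22), the interleukin receptor gene Il4r (0.21), Cp and the iron-binding lipocalin Lcn2 (0.15). Lbp, the gene of a protein that binds bacterial lipopolysaccharide, and the interleukin receptor gene Il1r1 lay below (-0.22 and -0.14). Tgfb1, a growth factor of scarring, was 0.23 higher (SE 0.09). Matrix genes of the perineuronal net list were above 0 in 29 of 41 (median 0.07), with 8 above all controls and 1 below, against 8.15% and 5.69% of genes. With all arrays 29 were again above 0, 6 above all controls and 1 below. The 8 included the glycoprotein gene Tnc (0.43, SE 0.20), the proteases Adamts5 (0.23) and Mmp9 (0.17) and the proteoglycan gene Bcan (0.16), and the protease Adamts4 was 0.39 higher (SE 0.13), with 1 of the 2 arrays inside the control range.

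The list of interferon response and antigen presentation had members on both sides. Of 39 members 22 were above 0 without replicate 2, 12 lay above all controls and 2 below, where 8.15% and 5.69% of all genes did so. With all arrays 22 were above 0, 6 above all controls and 0 below, against 5.63% and 2.07%. Cd74, the chaperone of class II molecules, was at 9.32, 9.42, 9.17 and 9.37 on the controls and at 9.86, 9.12 and 9.58 at day 14, so that replicate 2 lay below the controls and the other 2 above. The difference was 0.40 without replicate 2 (SE 0.22, adjusted p = 0.891) and 0.20 with it. The class II genes RT1-Db1 (0.41), RT1-Bb (0.39), RT1-Ba (0.35) and RT1-Da (0.33) lay above all controls on both arrays, as did Ciita (0.13), the factor that switches class II genes on, and the chemokine gene Cxcl9 (0.40). The 2 members below were the interferon-induced genes Rsad2 (-0.51, SE 0.19) and Ifit2 (-0.41, SE 0.21). On replicate 2 Rsad2 and Ifit2 were above the control mean, at 7.83 and 7.59, and RT1-Ba was at 4.95 against 7.92 to 8.40 on the controls, which turned its difference to -0.86 with all arrays.

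Of 30 microglial and macrophage markers 19 were above 0 without replicate 2 (median 0.07), 7 lay above all controls and 3 below, where 8.15% and 5.69% of all genes did so. With all arrays 23 were above 0 (median 0.12), 4 above all controls and 0 below, against 63.0%, 5.63% and 2.07% of all genes. Among those above without replicate 2 were Csf1r, the receptor that microglia need for survival (0.29, SE 0.12), the signalling adaptor gene Tyrobp (0.20) and the lysozyme gene Lyz2 (0.18). The 3 below were Mrc1 and Cd163, receptors of macrophages along vessels and in meninges, and the granulocyte receptor gene Csf3r. Mrc1 was at 6.17 to 6.62 on the controls, at 5.77 and 5.91 on replicates 1 and 3, and at 7.59 on replicate 2. Its difference was -0.56 (SE 0.16, adjusted p = 0.701) without replicate 2 and 0.02 with it. Cd163 was at 3.64 and 3.65 on those 2 arrays, below the controls at 3.78 to 4.11, and at 4.91 on replicate 2. Cd163 was dim, brighter than 21.6% of probe sets in the controls, and it was not shown to be above background. Lyve1, a hyaluronan receptor of the same macrophages and of lymph vessels, was at 5.09 and 5.08 against 5.56 to 5.91, with 7.28 on replicate 2 (-0.70, SE 0.24, adjusted p = 0.82), and its other probe set differed by -0.49. All 3 genes were therefore lower on replicates 1 and 3 and higher on replicate 2. Aif1, a calcium binding protein of all microglia and macrophages, was at 6.93, 8.18 and 6.68 at day 14 against 6.25 to 6.87. Of the 4 fixed microglia markers, Csf1r, Cx3cr1 and Aif1 were above 0 without replicate 2 and C1qa was at -0.03. C1qa was at 4.73 on replicate 2. The mean level of the 4 was 6.65 and 6.47 on replicates 1 and 3 against 6.32 to 6.50 on the controls. That of the 6 fixed markers of meninges and choroid plexus was 7.52 and 7.41 against 7.35 to 7.64, and their part in the result was not tested.

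Targets of the glucocorticoid receptor were mostly lower on replicates 1 and 3. Of 25, 6 were above 0 without replicate 2, with a median of -0.07, and in 6 both arrays lay below all controls and in 2 above, against 5.69% and 8.15% of all genes. The differences of the 25 ran from -0.64 for Sult1a1 to 0.32 for Cdkn1a. Fkbp5, a cochaperone that the receptor induces, was at 7.88, 8.01, 8.09 and 7.66 on the controls and at 7.21, 8.29 and 7.44 at day 14. Replicates 1 and 3 lay below all controls and replicate 2 above them. The difference was -0.58 (SE 0.11, adjusted p = 0.322) without replicate 2 and -0.26 (SE 0.24) with it. The other Fkbp5 probe set was at 6.63, 6.03 and 6.77 on day 14 replicates 1, 2 and 3, against 6.82 to 7.21 on the controls. By that probe set replicate 2 was the lowest array, and the difference was -0.30 without it and -0.53 with it. The other 5 targets below all controls without replicate 2 were the sulfotransferase gene Sult1a1 (-0.64), the metabolic kinase gene Pdk4 (-0.36), the transcription factor gene Klf9 (-0.28), Errfi1 (-0.18) and Tsc22d3 (-0.15), with adjusted p of at least 0.701. With all arrays 12 of the 25 were above 0, 1 was below all controls and 2 above, and the median was -0.01. Of all genes, 63.0% were above 0 with all arrays, 2.07% below all controls and 5.63% above, with a median of 0.06. Of 20 clock genes 7 were above 0 (median -0.10) and 9 with all arrays (median -0.03), and Rora, a nuclear receptor of the clock loop, was below all controls (-0.38). Cry1, a clock repressor, differed by -0.23 (SE 0.14).

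**Figure D4:**
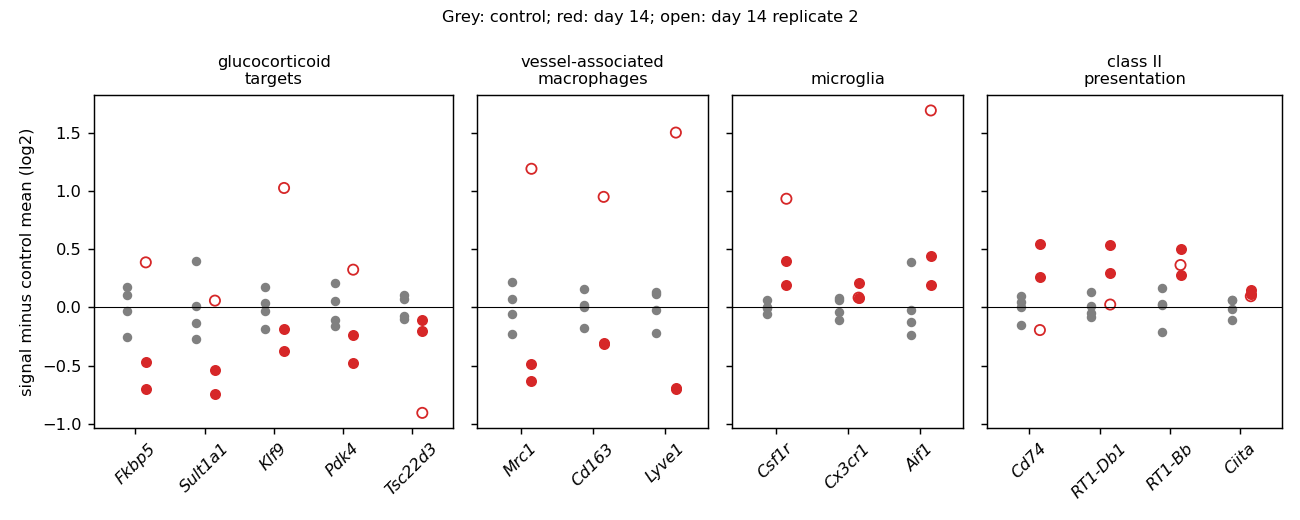
Log2 signal minus the control mean for genes of 4 groups on each array, with controls in grey, day 14 in red and day 14 replicate 2 as an open circle. Each gene is shown by its brightest probe set. The glucocorticoid targets drawn are from those below all controls without replicate 2, and those above all controls are not drawn. The fixed microglia marker C1qa, at -0.03 without replicate 2, and the class II genes RT1-Ba and RT1-Da are not drawn either. Fkbp5, Sult1a1, Mrc1, Cd163 and Lyve1 are below all controls on the 2 filled day 14 arrays and above the control mean on replicate 2, and Cd74 and RT1-Db1 are above all controls on the filled arrays but not on replicate 2.

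Among the genes of smallest p outside these groups, Slc7a5 was the furthest below control. Slc7a5, a transporter of large neutral amino acids, was at 7.64, 7.40, 7.25 and 7.26 on the controls and at 6.70, 5.53 and 6.38 at day 14, below all controls on every array. Its difference was -1.18 (SE 0.22, adjusted p = 0.301) and, without replicate 2, -0.85 (SE 0.17, adjusted p = 0.345). Casp4, an inflammatory caspase, was higher, at 6.61 to 6.80 on the controls and 7.12, 7.36 and 7.12 at day 14 (0.41 without replicate 2, SE 0.07, adjusted p = 0.252). Ltbp2, a matrix protein gene, was 0.40 higher (SE 0.08) and Kcnk10, a potassium channel gene, 0.39 higher (SE 0.07), though the other Kcnk10 probe set differed by -0.20. Lower without replicate 2 by 0.27 to 0.57 were S1pr1, a receptor of sphingosine phosphate, Zbtb14, Rasl11b, the leukotriene pathway gene Alox5ap, Apba3, the ceramide synthase gene Cers4 and the motor gene Myo5a. The largest negative differences of all genes without replicate 2, named after their values were seen, were Car3 (-1.63, SE 1.06) and Ccn2 (-0.99, SE 0.36). Car3, a carbonic anhydrase, was at 6.42, 8.06, 4.20 and 4.32 on the controls and at 4.12 and 4.11 on those day 14 arrays, so its difference rests on control replicates 1 and 2.

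Of 28 layer V and corticospinal genes, which mark the lesioned neurons among others, 14 were above 0 and 14 below without replicate 2. None lay above all controls and 2, Foxp2 and Etv1, below, against 8.15% and 5.69% of all genes. With all arrays 18 were above 0 and none lay beyond the controls. Of all genes, 63.0% were above 0 with all arrays, 5.63% above all controls and 2.07% below. Bcl11b and Fezf2, factors that specify these neurons, differed by 0.05 (SE 0.12) and 0.08 (SE 0.10), and Crym, a marker of corticospinal cells, by -0.08 (SE 0.07). Of 35 growth cone and cytoskeleton genes 13 were above 0 and 22 below (median -0.01), with 3 above all controls and 5 below, where 8.15% and 5.69% of all genes did so. With all arrays 11 were above 0 (median -0.10). The axonal motor gene Kif1a was 0.78 lower (SE 0.17, adjusted p = 0.423) without replicate 2. It was at 7.29 to 7.50 on the controls, at 6.39 and 6.77 on replicates 1 and 3 and at 8.41 on replicate 2. A second Kif1a probe set was lower by 0.76 (adjusted p = 0.203) and the remaining one differed by -0.03. The kinesin gene Kif5c was 0.74 lower (SE 0.20), with its other 2 probe sets at 0.06 and -0.33, and Kif5a differed by 0.09 with its other 2 probe sets at -0.57 and -0.41. In all, 7 of the 9 probe sets of these 3 kinesin genes were below 0, from -0.78 to -0.03, where 6626 of 14217 genes were below 0. Kif1a and Kif5a were chosen with their values in view, and probe sets of 1 gene are not separate members. This count is therefore no separate evidence. The microtubule gene Mapt was 0.31 higher (SE 0.10) by its brightest probe set, whereas the other 2 differed by -0.07 and -0.08. Of 20 general neuron genes 6 were above 0 (median -0.02), and of 37 synapse and vesicle genes 13 (median -0.01). With all arrays these counts were 4 and 11. Of 51 ion channel genes 17 were above 0 without replicate 2 (median -0.04), with 8 below all controls and 4 above, against 5.69% and 8.15% of genes. With all arrays the direction turned: 31 were above 0 (median 0.07), with 3 below all controls and 3 above. The calcium channel subunit gene Cacnb4 was 0.33 lower (SE 0.11) and the potassium channel gene Kcnh3 0.16 higher (SE 0.07). The layer marker gene Foxp2 was 0.16 lower (SE 0.08), the scaffold gene Dlg4 0.13 lower and its relative Dlg3 0.26 higher (SE 0.10). The activity marker Fos was at 6.06 and 5.18 on replicates 1 and 3 around controls at 5.33 to 5.77.

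**Figure D5:**
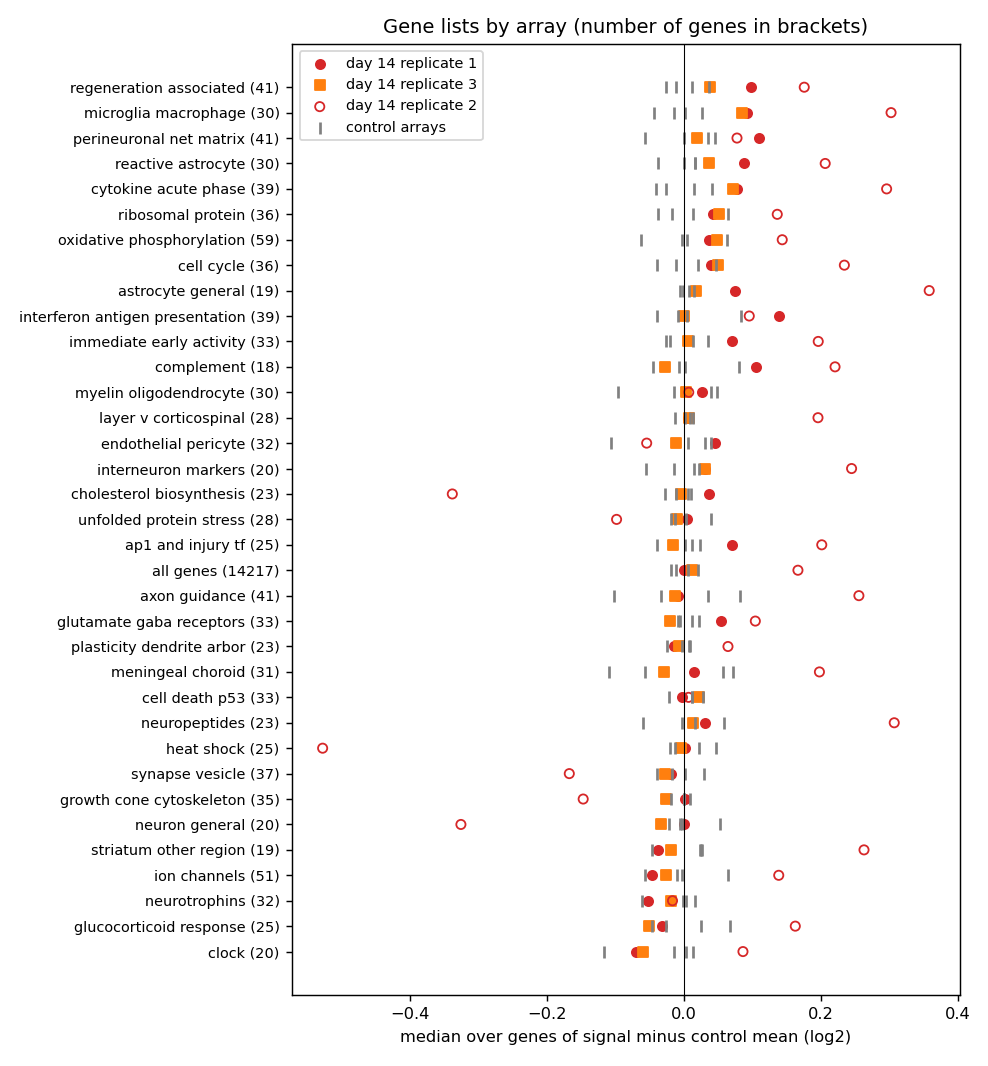
Median over the genes of each list of the log2 signal minus the control mean, for each control array and each day 14 array, ordered by the median difference without day 14 replicate 2. Replicates 1 and 3 lie between -0.07 and 0.14 for every list, and replicate 2 ranges from -0.53 for heat shock genes to 0.36 for general astrocyte genes.

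Genes of respiration and of the ribosome had small differences of mostly 1 sign. Of 59 genes of oxidative phosphorylation 52 were above 0 without replicate 2, with a median of 0.04 and differences from -0.09 to 0.17, and of 36 ribosomal protein genes 32, with a median of 0.05. Both arrays lay above all controls in 14 and 10 of them and below in 1 of each, against 8.15% and 5.69% of genes. With all arrays 38 and 23 were above 0, where 63.0% of all genes were. The control arrays differed among themselves by as much: their own medians for the oxidative list ran from -0.06 to 0.06, and those of replicates 1 and 3 were 0.04 and 0.05. Lists of cholesterol synthesis (14 of 23 above 0, median 0.01), the unfolded protein response (16 of 28, 0.01), heat shock (10 of 25, -0.01), cell death and p53 (16 of 33, -0.01) and cell cycle (26 of 36, 0.04) had at most 5 members beyond the controls in either direction. Of all genes 8.15% lay above and 5.69% below. With all arrays 10, 13, 7, 16 and 28 members of these lists were above 0, with medians of -0.12, -0.04, -0.18, -0.001 and 0.13. Cdk1, the kinase of mitotic entry, was 0.34 higher (SE 0.11) and the replication gene Mcm3 0.26 lower (SE 0.08). The cell cycle inhibitor gene Cdkn1a and the death gene Hrk differed by 0.32 (SE 0.17) and 0.25 (SE 0.10). Among the 28 unfolded protein genes 5 (17.9%) lay below all controls without replicate 2 and 1 above, against 5.69% and 8.15% of all genes. With all arrays 2 lay below and 1 above, against 2.07% and 5.63%. Hspa5, the main chaperone of the endoplasmic reticulum, was among the 5, lower by 0.18 (SE 0.08).

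Of 30 myelin and oligodendrocyte genes 16 were above 0 (median 0.02), and 15 with all arrays (median 0.03). Without replicate 2, 3 of the 30 lay above all controls and 2 below, where 8.15% and 5.69% of all genes did so. With all arrays 1 lay above and 1 below, against 5.63% and 2.07%. Cnp and Bcas1, made by oligodendrocytes, were among the 3 above, by 0.20 (SE 0.07) and 0.27 (SE 0.08). Mbp, the main myelin protein gene, was at 12.6 to 12.7 on the controls, 12.8 and 12.6 on replicates 1 and 3 and 8.84 on replicate 2. Endothelial and pericyte genes (18 of 32 above 0), complement (11 of 18), axon guidance (22 of 41), neurotrophins (12 of 32), dendrite and plasticity genes (11 of 23), receptors of glutamate and GABA (17 of 33), immediate early genes (19 of 33) and genes of striatum (7 of 19) or meninges and choroid plexus (15 of 31) had medians from -0.05 to 0.03. With all arrays their counts above 0 were 16, 10, 25, 16, 12, 21, 22, 12 and 18, in that order. The members of smallest p included the guidance receptor genes Epha5 (-0.36, SE 0.13) and Ephb1 (0.22, SE 0.10), the receptor subunit genes Gabrd (0.22, SE 0.07) and Grik1 (-0.25, SE 0.11) and the growth factor receptor genes Met (0.23, SE 0.07) and Fgfr1 (-0.14, SE 0.07). Rasgrp1, an activator of Ras signalling, was 0.44 lower (SE 0.17), the phosphatase gene Dusp4 0.24 higher (SE 0.10), and the meningeal matrix gene Omd 0.66 lower (SE 0.28). Pde10a and Wfs1, which are abundant in striatum, were 0.33 (SE 0.09) and 0.23 (SE 0.12) lower. None of these had an adjusted p under 0.701. Cortical neuron markers were present at a mean level of 7.90 on replicates 1 and 3, against 7.35 to 8.12 on the controls. The 4 striatal markers were at 5.57 on both arrays, against 5.52 to 5.61. The lowest values of Slc17a7, a transporter of excitatory neurons, were 5.95 on day 14 replicate 2 and 7.29 on control replicate 3, against 8.46 to 8.70 on the other 5 arrays.

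With day 14 replicate 2 kept, 25 of 138 genes taken by the naming rule or added to it had a difference of the other sign. The largest of these with all arrays was that of Mbp (-1.25). Among the genes described, Hoxc9 (0.41), Fos (0.40), Tcf7l2 (0.20), Foxp2 (0.17), Klf9 (0.16), Mnd1 (0.16), Cd163 (0.11), Sst (0.10), Acer2 (0.06), Dlg4 (0.05), Bcl6 (0.04), Lyve1 (0.03), Fam13c (0.03) and Ifit2 (0.01) were above control with it, as were Cnr1 (0.08) and Il1r1 (0.07), which were named outside the rule. Slc17a7 (-0.47), Mapt (-0.44), Kif5a (-0.34) and Clcn7 (-0.14) were below. On that array Mbp, Mapt and Slc17a7 were each more than 1 log2 unit below every other control and day 14 array.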

How the data were processed

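The series holds 19 arrays of biotin-labelled cRNA made from 6 ug of total RNA each. The authors deposited 1 log2 value for each probe set on each array. The submitters' processing notes name RMA, which corrects background, equalizes the distributions of the arrays by quantiles and sums up the probes; no version was found in the sources used here. Quantile normalization removes any shift common to all transcripts. Scan dates were not analysed here. The number of arrays limits the precision.

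Of 31099 probe sets, 57 array controls served for quality only. The platform annotation, updated through a RefSeq gene table used for names alone, gave 1 symbol to 20826 probe sets, several to 436 and none here to 9780. Where a gene had several probe sets, the brightest on average over the 19 arrays stands for it. Signals of different genes were not compared, except as a rank among probe sets.

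Each probe set was fitted with limma 3.58.1 in R 4.3.3 (1 mean per group, eBayes defaults, two-sided, Benjamini-Hochberg over 31042 probe sets, threshold 0.05). The comparison with all arrays used 19 arrays (13 residual and 2.76 prior degrees of freedom). The comparisons without day 14 replicate 2, against day 7 and against day 49 used 17 (11 and 4.38). In the test on simulated data, 50 probe sets each were changed by 0.5, 1, 2 and 3 (log2). The fit with all arrays found 12, 39, 49 and 50 of them and made 7 false calls. The fit without replicate 2 found 35, 49, 50 and 50 and made 14 false calls. Simulated noise was equal on all arrays and independent between probe sets, which the data are not.

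The members, the 34 gene lists (1191 entries, 1055 matched) and the tests were chosen with earlier results of these data known. Lists are described by counts and medians. Genes were named by a rule. For each comparison with control it takes the genes of largest change past the threshold, or, where fewer than 3 passed, the 5 of smallest p in each direction. It does the same against days 7 and 49, and adds the 2 members of smallest p from each list and 19 fixed genes. The other genes in the text, mostly list members beyond all controls or related to a named gene, were chosen with their values in view. The spiked-in controls are bacterial and phage probe sets of labelling and hybridization. Promoter windows came from RefSeq (GRCr8). Alternatives were centring of each array, leaving out dim probe sets, trend and robust settings in eBayes, weights for arrays, the 2 groups alone, a replicate block, the beta-actin difference as a covariate, all 19 arrays for the later comparisons, and each replicate left out. Plots were drawn with matplotlib 3.10.9.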

Additional observations from a re-analysis of the deposited data

Results flagged for a closer look

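Day 14 replicate 2 had 3 control-probe measures beyond all control arrays. The beta-actin 3' minus 5' difference was 2.24 against at most 1.09 on the controls, that of GAPDH was 3.18 against at most 0.11, and the mean of the spiked-in controls was 10.5 against at most 9.80 (all log2). The hexokinase difference of 1.09 lay inside the control range. The high spiked-in mean was not particular to this array. Day 49 replicate 2 had a spiked-in mean of 10.4, with beta-actin and GAPDH differences of 0.845 and -0.006.

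In 9 of 138 named genes (6.52%) 1 of the 4 control arrays stood far from the others by Dixon's gap, where chance gives about 1 in 20. Control replicate 3 was high for Cry1 (7.06) and Kif5a (10.8) and low for Grik1 (8.80) and Slc17a7 (7.29). Control replicate 4 was low for Cnp (9.97), Fezf2 (4.00) and Fos (5.33). Control replicate 1 was low for Ifitm3 (9.38) and control replicate 2 high for Gabrd (6.77).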

How the results depend on the processing

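Against control, the count of called probe sets stayed at 0 under centring, the filter on dim probe sets and the trend and robust settings, with and without day 14 replicate 2, and with the beta-actin covariate for all arrays. With all arrays it was 9 with array weights (6 higher, among them Gal, Csrp3, Gfap, Casp4 and Kcnk10, and 3 lower), 1 with the 2 groups alone (Vip), and 0 to 1 with a replicate left out, the 1 being Ltbp2 (0.60) without day 14 replicate 1. Without replicate 2 it was 1 with array weights (a Kif1a probe set, -0.79, adjusted p = 0.0306) and 4 with the 2 groups alone (Atf3, Vip, Csrp3 and Gal). Against day 7 it was 0 throughout. Against day 49 it was 1 with trend and robust settings (Fkbp5, adjusted p = 0.0295) and 0 to 45 with a replicate left out, the 45 without day 49 replicate 1 (25 higher, 20 lower), which leaves 1 day 49 array, assumed to vary like the other groups. With the replicate number as a block the count was 0 against control in both comparisons and against day 7, and 2 against day 49 (Fkbp5 and an unnamed probe set). Control and day 14 arrays numbered alike deviated from their group means with correlations of 0.07, -0.01 and -0.15. The day 14 mean included replicate 2, so these values do not show whether such arrays share more than a number. The fits of 2 groups alone leave out the spread of the other groups; the cause of the other shifts in counts was not tested.

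Of 3500 values of 138 named genes, 107 had the other sign, and in 18 of these an unadjusted p under 0.05 stood on 1 side. All 18 concern the comparison with all arrays. With array weights they were Cd163 (-0.29), Eif2ak3 (-0.20), Fam13c (-0.19), Hoxc9 (-0.19), Klf9 (-0.19), Lyve1 (-0.68), Mrc1 (-0.55), Mapt (0.28), Plat (0.18) and Stmn4 (0.28). With the beta-actin covariate they were Ifit2 (-0.52), Klf9 (-0.28), Lyve1 (-0.84) and Mrc1 (-0.56). Without day 14 replicate 2 alone they were Klf9 (-0.28), Mapt (0.31), Mrc1 (-0.56) and Stmn4 (0.30), whose ranges with 1 day 14 array left out ran to 0.42, -0.83, 0.35 and -0.62.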
